A study of Mus musculus with 6 samples.

Results

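Th17 genes and the Tmem176 pair were examined in mouse Th9 cells, T helper cells that secrete interleukin 9. The 9 genes are Rora, Il17a, Il17f, Il22, Il23r, Il1r1, Ccr6, Tmem176a and Tmem176b. They are a list of symbols, applied with no threshold on a measured value but drawn up with earlier results of these data known, and all 9 were among the 21233 genes of the deposited tables. RNA-seq was done on 3 libraries from Th9 cells treated with sorafenib, a kinase inhibitor used against liver and kidney cancer, and 3 control libraries from Th9 cells not given the drug. The sources used here do not give the mouse strain, genotype or age, the dose, the duration, any vehicle or how the cells were made. Nothing in the labels says that the numbered libraries are separate cultures or animals. The p-values therefore reflect the spread between these libraries alone, which may be technical.

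Th17 cells are the CD4 T helper class defined by interleukin 17, and they guard mucosal surfaces and drive neutrophil-rich inflammation. In mouse, transforming growth factor beta with interleukin 6 starts the programme through STAT3 and nuclear receptors that include RORα (Rora), and interleukins 1 and 23 sustain it. Th9 and Th17 differentiation share an input from transforming growth factor beta. Tmem176a and Tmem176b encode related membrane proteins with a fold like that of the Ms4a family, and in mouse both have been described in Th17 cells and in dendritic cells.

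Total counts per library lay between 36981476 and 38126521. Levels are given as CPM, the count scaled by library total and TMM factor. The limit that a count of 0 allows, 3 counts, was 0.0787 to 0.0811 CPM and takes account of counting error alone. Of 13255 genes with enough counts to be tested, edgeR's quasi-likelihood test called 8.51% higher and 9.43% lower in sorafenib cells, 17.9% in all (Benjamini-Hochberg adjusted p below 0.05 over every tested gene). With total-count scaling, 1496 genes were called higher and 826 lower, against 1128 and 1250 with TMM. Control replicate 2 stood apart from the other libraries. Its median absolute log2 deviation from the other replicates of its group was 0.22, against 0.07 to 0.17 elsewhere, and its 100 most abundant genes took 31.8% of its counts. Across genes its deviation correlated with the gene length that the authors used (Spearman rho -0.47). Control replicates 1 and 3 had 0.37 and 0.29, and the sorafenib libraries -0.08 to 0.08. Each deviation was taken from the other replicates of its group, so control replicate 2 entered the values of control replicates 1 and 3. Without control replicate 2, 32.4% of genes were called. Markers of the labelled cells were present: Il9 had 266 ± 15.4 CPM in sorafenib cells and 192 ± 18.8 CPM in control cells, and Cd4 had 496 ± 10.7 CPM in sorafenib cells and 476 ± 35.9 CPM in control cells (SD, n = 3 each, here and below). Of 7 tested CD4 T and Th9 markers 1 was higher, Il9, and 3 were lower, with a median log2 fold change of -0.29. Those lower were Cd28 (log2 fold change -0.55) and the T cell receptor complex genes Cd3g (-0.39) and Cd3e (-0.31), and their part in the results below was not tested.

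With sorafenib the 3 cytokine genes fell, while both Tmem176 genes and the chemokine receptor Ccr6 rose. Rora, the transcription factor of the set, and Il1r1, a receptor, did not pass the test, and Il23r was too low to be tested. So of 8 tested genes 3 were called higher and 3 lower, beside 8.51% and 9.43% of all tested genes, and for those 6 the sorafenib and control libraries did not overlap, beside 36.3% of all tested genes (18.3% above and 18% below). A called change of at least 2-fold was found for 2 of the 8 upward and 3 downward, beside 2.11% of tested genes upward and 2.11% downward. In bulk RNA, fewer cells carrying a transcript and less transcript per cell cannot be told apart.

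**Figure D1:**
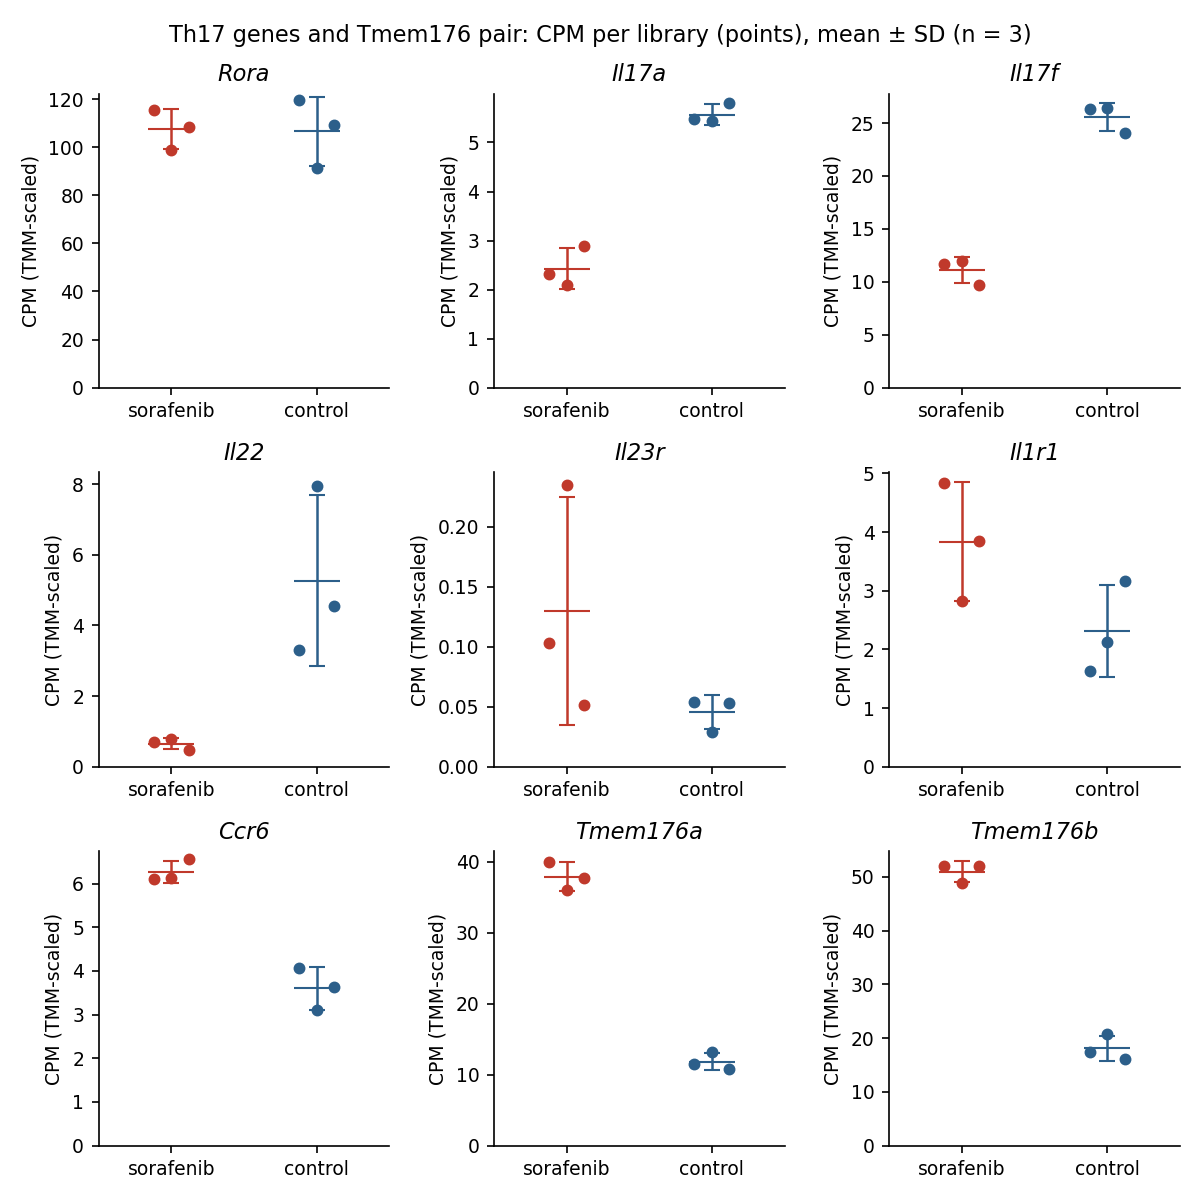
TMM-scaled CPM of the 9 genes in each library, with sorafenib left of control; each point is a library, and bars show mean and SD of 3 libraries. The 3 interleukin genes sit lower and Ccr6, Tmem176a and Tmem176b higher in every sorafenib library than in any control library, while the groups overlap for Rora, Il1r1 and Il23r.

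Rora encodes RORα, a nuclear receptor that promotes the Th17 programme. Its transcript stood at 116, 99.0 and 109 CPM in the 3 sorafenib libraries, against 119, 91.3 and 109 CPM in the 3 control libraries. The groups overlapped fully, and the lowest value was that of control replicate 2. The log2 fold change was 0.01 ± 0.10 (SE), with a 95% interval from -0.21 to 0.24 and an adjusted p of 0.944. Without control replicate 2 the estimate was -0.08 (adjusted p = 0.363), so its sign is not settled, and the interval covers changes of either sign of that size. By profile over the 6 libraries, the genes most like Rora were Usp34, Vps13a and Mblac2, at root-mean-square differences of 0.02, 0.02 and 0.03 in centred log2 CPM among 11430 genes compared.

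Il17a and Il17f are neighbouring genes of related sequence whose products pair as homodimers or as a heterodimer, and both act on epithelial and stromal cells. Il17a had 2.32, 2.09 and 2.89 CPM in sorafenib libraries, against 5.47, 5.43 and 5.81 CPM in control libraries. The libraries separated cleanly, from raw counts of 80 to 113 with sorafenib and 187 to 218 in control. Il17a fell 2.29-fold (log2 fold change -1.20 ± 0.17 SE, adjusted p = 0.000952). Il17f had 11.7, 11.9 and 9.73 CPM in sorafenib libraries, against 26.4, 26.4 and 24.1 CPM in control libraries. It fell 2.30-fold (log2 fold change -1.20 ± 0.10 SE, adjusted p = 4.54e-05), the same log2 size as Il17a to 2 decimals. Il17f was thus the more abundant of the pair, with 5.84 ± 0.641 FPKM in sorafenib and 12.7 ± 0.736 FPKM in control cells, where Il17a had 2.13 ± 0.359 FPKM in sorafenib and 4.64 ± 0.331 FPKM in control cells. FPKM, which divides the authors' counts by gene length and library total, allows levels of different genes to be compared.

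The balance between the cytokines was also measured. Il17a made up 16.5%, 14.9% and 22.9% of the pair's counts in sorafenib libraries, against 17.2%, 17.1% and 19.4% in control libraries. The control values lay within the range of the sorafenib ones, and the difference of means was 0.193 percentage points (exact two-sided permutation p = 1). With the counts of both genes summed, the pair fell 2.30-fold (log2 fold change -1.20 ± 0.09 SE, adjusted p = 1.71e-05). Genes most like Il17a by profile were Pard6b, Krt18 and Paqr4, at root-mean-square differences of 0.10, 0.10 and 0.12, and Il17f ranked 98 of 11430 at 0.24.

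Both cytokine promoters hold the letters AGGTCA, the core recognised by ROR factors and several other nuclear receptors, and they are shown because these genes moved together. The windows run from 250 bases before to 50 bases after the RefSeq start site on GRCm38.p6, which is not the build of the authors' counts (GRCm39), and capitals mark AGGTCA or its reverse complement. The Il17a window (chr1:20730655-20730954, plus strand) holds it on the opposite strand, its first base at position -120 from the start, and the Il17f window (chr1:20784221-20784520, minus strand) holds it at position -58.
Il17a: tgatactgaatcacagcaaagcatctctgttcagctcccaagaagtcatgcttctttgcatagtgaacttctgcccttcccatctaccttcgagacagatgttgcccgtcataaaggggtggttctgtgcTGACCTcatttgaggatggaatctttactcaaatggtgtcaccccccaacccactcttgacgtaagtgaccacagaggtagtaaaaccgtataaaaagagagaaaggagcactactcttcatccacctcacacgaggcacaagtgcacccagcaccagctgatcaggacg
Il17f: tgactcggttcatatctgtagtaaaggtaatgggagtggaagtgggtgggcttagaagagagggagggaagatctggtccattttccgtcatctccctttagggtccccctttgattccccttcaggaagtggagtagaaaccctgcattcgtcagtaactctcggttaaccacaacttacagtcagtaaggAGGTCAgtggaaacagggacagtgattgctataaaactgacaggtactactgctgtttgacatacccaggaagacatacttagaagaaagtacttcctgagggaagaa
AGGTCA on either strand occurred in 16.3% of 32851 such windows across the genome. It was found for 4 of the 9 genes, in 4 of their 14 windows. Matches are a description of the letters only, and no binding was measured.

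Il22 encodes interleukin 22, an interleukin 10 family cytokine that acts on epithelium and is made by Th17, Th22 and innate lymphoid cells. It had 27, 30 and 19 counts in sorafenib libraries, against 123, 274 and 171 counts in control libraries. In CPM this was 0.695, 0.782 and 0.485 in sorafenib libraries and 3.30, 7.96 and 4.56 in control libraries. The groups lay far apart, and control replicate 2 was the highest of all. Il22 fell 8.01-fold (95% interval 4.67 to 13.7, log2 fold change -3.00 ± 0.35 SE, adjusted p = 0.000292), and only 23 of 13255 tested genes had a larger fall by fitted fold. Without control replicate 2 the fall was 5.97-fold (adjusted p = 1.77e-06). On log2(FPKM + 1), a scale that understates changes of low genes, it was 3.02-fold.

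Among the receptors, Ccr6, the receptor of the chemokine CCL20 and a surface marker of Th17 cells and B cells, had 6.10, 6.13 and 6.56 CPM in sorafenib libraries, against 4.07, 3.11 and 3.62 CPM in control libraries. Every sorafenib library was above every control library. Ccr6 rose 1.74-fold (log2 fold change 0.80 ± 0.15 SE, adjusted p = 0.00477). Its ligand gene Ccl20 had 31, 43 and 34 counts in sorafenib libraries and 7, 16 and 26 in control libraries (adjusted p = 0.15), with no overlap between groups. This ligand was singled out after its values were seen. Genes that mark B cells moved with Ccr6. Of 9 symbols 7 were in the table, and 6 of the 6 tested were higher, beside 8.51% of all tested genes. The summed level of the 7 was 31.6 to 34.6 CPM in sorafenib libraries, against 8.04 to 16.8 CPM in control libraries. Ms4a1, which encodes CD20, had 0 to 2 counts in every library. The part of such cells in the Ccr6 result was not tested.

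Il1r1, the signalling receptor of interleukin 1, had 4.84, 2.82 and 3.86 CPM in sorafenib libraries, against 1.64, 2.12 and 3.17 CPM in control libraries. The lowest sorafenib value lay below the highest control value. The estimated fold of 1.66 (95% interval 1.09 to 2.54) did not pass over all genes (log2 fold change 0.73 ± 0.28 SE, adjusted p = 0.0986). With no filter on low counts it did pass, at an adjusted p of 0.0413. Leaving out control replicate 3 also took it past the threshold, at an adjusted p of 0.0446. Il23r, the receptor chain that makes cells responsive to interleukin 23, had 4, 9 and 2 counts in sorafenib libraries and 2, 1 and 2 counts in control libraries. All 3 control values were at or under the floor of 3 counts, so no fold is given, and a decrease was not detectable at this depth. In a fit with no filter Il23r did not pass (adjusted p = 0.5).

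The promoters of both receptor genes that hold AGGTCA are shown for comparison with the cytokine genes, as stretches around each match, again from GRCm38.p6. The Il23r window holds it at positions -229 (chr6:67492052-67492105, minus strand) and -66 (chr6:67491889-67491948, minus strand), and 1 of the Ccr6 windows at position -44 (chr17:8235972-8236031, plus strand).
Il23r first: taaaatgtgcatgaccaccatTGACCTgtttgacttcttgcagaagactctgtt
Il23r second: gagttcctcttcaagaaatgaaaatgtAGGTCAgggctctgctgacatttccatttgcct
Ccr6: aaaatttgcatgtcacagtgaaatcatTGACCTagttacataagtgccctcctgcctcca
So the motif was present at both genes that fell together (Il17a, Il17f), at 1 that rose (Ccr6) and at 1 near its detection floor (Il23r), and the letters were not in the windows of Rora, Il22, Il1r1, Tmem176a or Tmem176b. The AP-1 motif TGANTCA was in 1 of the 14 windows, that of Il17a, beside 7.81% of all windows, and the STAT motif TTCNNNGAA was in 1, a Ccr6 window, beside 8.30%.

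**Figure D2:**
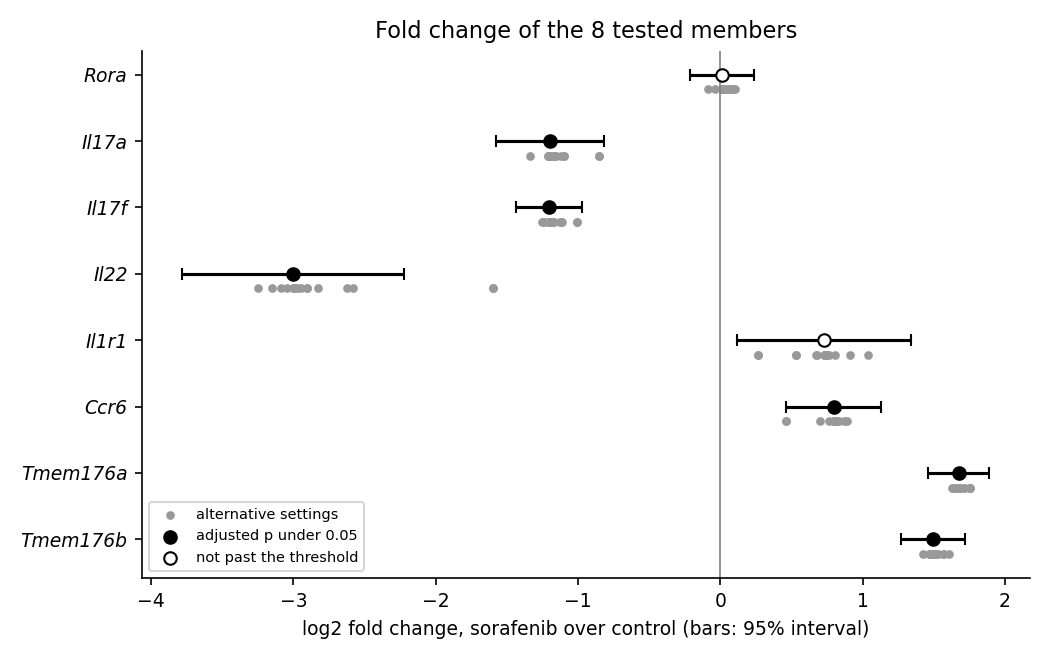
Log2 fold change, sorafenib over control, of the 8 tested genes with 95% intervals; filled circles passed an adjusted p of 0.05 and grey points give the same value under each alternative setting. Il17a, Il17f and Il22 lie below 0 and Ccr6, Tmem176a and Tmem176b above 0 under every setting run, Il22 ranging most widely, while points of Rora fall on both sides of 0.

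Tmem176a and Tmem176b, whose proteins are membrane-spanning and thought to act as intracellular cation channels, changed most strongly among the genes that rose. Tmem176a had 1553, 1379 and 1478 counts in sorafenib libraries, against 431, 453 and 408 counts in control libraries, or 40.0, 36.0 and 37.7 CPM with sorafenib and 11.6, 13.2 and 10.9 CPM in control. It rose 3.2-fold (log2 fold change 1.68 ± 0.10 SE, adjusted p = 4.69e-06). Tmem176b had 52.1, 48.8 and 52.1 CPM in sorafenib libraries, against 17.5, 20.7 and 16.1 CPM in control libraries. It rose 2.82-fold (log2 fold change 1.5 ± 0.10 SE, adjusted p = 1.18e-05). Replicates were tight in both groups, and the gap between groups was several times the spread within either. Larger rises by fitted fold were found in 105 and 161 of the 13255 tested genes, for Tmem176a and Tmem176b in turn.

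The balance within the pair was also measured. Tmem176a took 43.4%, 42.4% and 42.0% of the pair's counts in sorafenib libraries, against 39.8%, 38.8% and 40.3% in control libraries. The groups did not overlap, and the difference of 2.97 percentage points gave an exact two-sided permutation p of 0.1, the smallest that 3 against 3 allows. This permutation test could therefore not reach 0.05 whatever the values, and no other test of the share was run. The 95% intervals of the log2 fold changes were 1.46 to 1.89 for Tmem176a and 1.27 to 1.72 for Tmem176b. Their overlap is not a test of the difference, since both come from the same libraries. This share does not depend on library scaling, and leaving out any 1 library kept the difference between 2.55 and 3.30 points. With both genes' counts summed, the pair rose 2.97-fold (log2 fold change 1.57 ± 0.09 SE, adjusted p = 5.22e-06). By profile, Tmem176b was the second most similar to Tmem176a of 11430 genes, at a root-mean-square difference of 0.09, between Dzip1 at 0.08 and Abcg3 at 0.12. The genes most like Tmem176b were Stc1, Fam43a and Csf1, at 0.04, 0.08 and 0.09, and Tmem176a ranked 4.

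**Figure D3:**
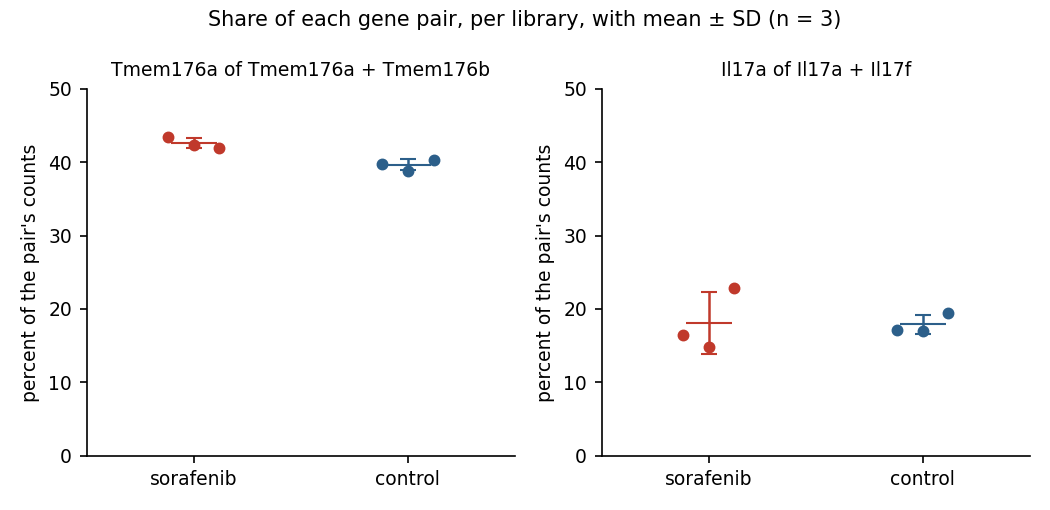
Percent of a pair's raw counts that came from Tmem176a (left) and from Il17a (right) in each library, with sorafenib left of control and mean and SD of 3 libraries. The Tmem176a share is 42.6% ± 0.736 with sorafenib and 39.7% ± 0.765 in control with no overlap, while the Il17a share is 18.1% ± 4.23 with sorafenib and 17.9% ± 1.33 in control and overlaps.

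These genes are arranged head to head. In RefSeq on GRCm38.p6, Tmem176a has 2 start sites and Tmem176b has 3, and the closest pair facing away from each other lies 109 bases apart. The window around it (chr6:48841233-48841532, plus strand) is printed because the genes that it separates rose together, with capitals running from the Tmem176b start to the Tmem176a start.
Tmem176a and Tmem176b: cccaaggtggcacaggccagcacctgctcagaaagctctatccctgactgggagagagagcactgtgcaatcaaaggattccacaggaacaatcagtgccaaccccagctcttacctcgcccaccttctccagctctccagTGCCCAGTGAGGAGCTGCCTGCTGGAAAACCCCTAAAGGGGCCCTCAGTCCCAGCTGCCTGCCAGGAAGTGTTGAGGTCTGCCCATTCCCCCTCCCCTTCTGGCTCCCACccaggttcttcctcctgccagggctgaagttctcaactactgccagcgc
None of the 3 motifs searched was found in the 5 windows of the pair. In GENCODE M21, also on GRCm38, exons of both genes overlap by 81 bases on opposite strands. The sources used here do not say whether counting used strand, so reads from that stretch cannot be assigned with certainty.

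Neighbours of the pair on chromosome 6 were mostly Gimap genes, which encode GTPases of lymphocyte survival, and none of the tested ones rose. Of 10 tested genes in the list of neighbours, the Tmem176 pair rose and 4 fell, beside 8.51% and 9.43% of all tested genes. The median log2 fold change of the list was -0.19, against -0.01 over all tested genes. Gimap6 had 170 ± 4.86 CPM in sorafenib cells and 271 ± 13.9 CPM in control cells, a fall of 1.60-fold (adjusted p = 0.000126). Aoc1, an amine oxidase gene in the same list, had 5, 5 and 15 counts in sorafenib libraries and 0 in each control library, below the level needed for a test. Of the related Ms4a genes, 11 of 16 symbols were in the table and 3 were tested. Ms4a4b, a member expressed in T cells, had 11.5 ± 0.198 CPM in sorafenib cells and 5.41 ± 0.510 CPM in control cells, a rise of 2.13-fold (adjusted p = 0.000175), and the other two tested did not pass.

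Dendritic and myeloid cells also express the Tmem176 pair, so their markers are given beside it. Of 14 symbols 11 were in the table and 5 were tested, of which 2 were higher, beside 8.51% of all tested genes. The summed level of the 11 was 9.89 to 12.2 CPM in sorafenib libraries, against 4.37 to 5.43 CPM in control libraries. Flt3 had 65 to 245 counts over the 6 libraries and Zbtb46 had 23 to 151, while Csf1r, Cd14 and Xcr1 had at most 3 counts in any library. The part of such cells in the Tmem176 result was not tested. Of the gamma delta T cell markers, 3 of 8 symbols were in the table. Blk, a kinase of B cells and some gamma delta T cells, rose (log2 fold change 1.92 ± 0.56 SE, adjusted p = 0.0372), a call lost when control replicate 1 or 3, or any 1 sorafenib replicate, was left out. The other one tested, Zbtb16, lay the opposite way at 0.644, 0.548 and 0.715 CPM in sorafenib libraries, against 1.13, 0.813 and 0.826 CPM in control libraries (log2 fold change -0.53 ± 0.34 SE, adjusted p = 0.324). The summed level of these markers was 2.02 to 2.50 CPM in sorafenib libraries, against 0.986 to 1.66 CPM in control libraries.

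**Figure D4:**
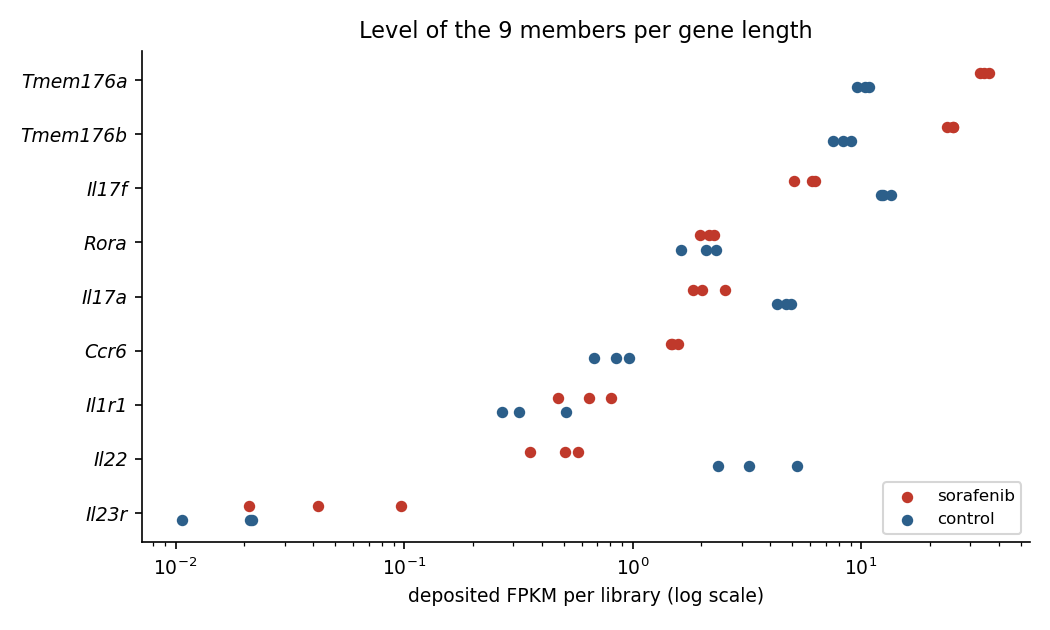
Deposited FPKM of the 9 genes in each library on a log scale, sorafenib above control for each gene, ordered by mean in sorafenib cells. Tmem176a and Tmem176b lead in sorafenib cells, Il17f leads in control cells, and Il22 takes the eighth place in sorafenib cells and the fifth in control cells.

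Order of the transcripts per gene length differed between groups. In sorafenib cells Tmem176a was highest at 34.8 ± 1.64 FPKM, then Tmem176b at 24.8 ± 0.800, Il17f at 5.84 ± 0.641, Rora at 2.14 ± 0.153, Il17a at 2.13 ± 0.359 and Ccr6 at 1.52 ± 0.0643 FPKM. Below them came Il1r1 at 0.641 ± 0.165, Il22 at 0.480 ± 0.113 and Il23r at 0.0534 ± 0.0393 FPKM. Neighbours overlapped across sorafenib libraries for Rora with Il17a and for Il1r1 with Il22. In control cells Il17f was highest at 12.7 ± 0.736 FPKM, then Tmem176a at 10.3 ± 0.605, Tmem176b at 8.32 ± 0.743, Il17a at 4.64 ± 0.331, Il22 at 3.61 ± 1.47 and Rora at 2.01 ± 0.357 FPKM. Ccr6 at 0.830 ± 0.148, Il1r1 at 0.367 ± 0.129 and Il23r at 0.0178 ± 0.00618 FPKM followed. In control libraries Il17a and Il22 overlapped, and the other neighbours did not.

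Levels between genes rest on the length that the authors used. The FPKM values imply 51.8 kb for Rora and 1.12 kb for Tmem176a, where the union of annotated exons in GENCODE M21 is 13.1 kb and 3.81 kb. For Ccr6 the lengths are 4.24 kb and 2.32 kb, and for Il17a they are 1.17 kb in both. On the M21 lengths, an alternative chosen after seeing the data, Tmem176b at 22.1 would be above Tmem176a at 10.2 FPKM in sorafenib cells, and Rora at 8.46 above Il17f at 5.65 FPKM. Fold changes of a gene between groups do not depend on this length.

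The wider Th17 network was described by lists chosen with earlier results of these data known. Regulators that promote the programme were, where called, mostly lower: of 14 tested 1 rose and 4 fell, beside 8.51% and 9.43% of all tested genes, with a median log2 fold change of -0.22. Without control replicate 2 the counts were 2 and 8, in a fit that called 32.4% of all tested genes. Stat3, which carries the signal of interleukins 6, 21 and 23, had 958 ± 7.59 CPM in sorafenib cells and 1251 ± 29.9 CPM in control cells, a fall of 1.31-fold (adjusted p = 0.00811) that missed the threshold without any 1 of the sorafenib replicates (adjusted p = 0.0503 to 0.0647). Maf, a factor linked to interleukin 10 and 21, fell 1.86-fold, to 173 ± 15.1 CPM in sorafenib cells, against 321 ± 41.9 CPM in control cells. Hif1a, the hypoxia factor, fell 1.58-fold, to 764 ± 36.97 CPM in sorafenib cells, against 1211 ± 89.8 CPM in control cells. Rel, an NF-kappaB subunit, rose 1.52-fold.

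Factors that restrain the programme were, where called, also mostly lower. Of 12 tested 1 rose and 6 fell, beside 8.51% and 9.43% of all tested genes, with a median of -0.33. Foxp3, the factor of regulatory T cells, rose 2.03-fold (adjusted p = 0.000356), while Socs3, a brake on STAT3 signalling, fell 1.5-fold (adjusted p = 0.000264) and Gfi1, a repressor, fell 1.36-fold (adjusted p = 0.00376, but 0.108 on log2(FPKM + 1) with no filter). The counts for the list were 1 and 3 without sorafenib replicate 1. That fit called 600 of 13255 genes higher and 735 lower. On log2(FPKM + 1) with no filter the list counts were 1 and 1. That fit called 1034 of 21233 genes higher and 572 lower. Without control replicate 2 the list counts were 1 and 7, in a fit that called 32.4% of all tested genes. Cytokines, receptors and receptor-linked kinases upstream of the programme went both ways, with 4 higher and 3 lower of 15 tested. This stands beside 8.51% and 9.43% of all tested genes, and the median was 0.10. Tgfb3 fell 2.68-fold, to 39.1 ± 5.26 CPM in sorafenib cells, against 105 ± 9.54 CPM in control cells, and Il21 fell 1.52-fold. Il6ra, the ligand-binding chain of the interleukin 6 receptor, rose 1.82-fold, to 50.6 ± 3.56 CPM in sorafenib cells, against 27.8 ± 6.18 CPM in control cells.

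Products associated with Th17 cells fell more often than they rose. Of 20 tested 1 rose, Ccr6, and 10 fell, beside 8.51% and 9.43% of all tested genes, with a median of -0.45. The list holds 4 of the 9 genes described above. Ltb4r1, the leukotriene B4 receptor, fell 3.18-fold, to 3.22 ± 0.287 CPM in sorafenib cells, against 10.3 ± 0.920 CPM in control cells (adjusted p = 3.45e-05), and Il10 fell 2.58-fold (adjusted p = 1.98e-05). In the interleukin 17 family with its receptors and their adaptor, 0 rose and 2 fell of 7 tested by edgeR, beside the same shares. Those that fell were Il17a and Il17f. Without control replicate 2 the counts were 1 and 3, in a fit that called 32.4% of all tested genes. In the interleukin 22 and 10 family with receptors, 0 rose and 3 fell of 7 tested, beside 8.51% and 9.43% of all tested genes. Il24 fell 3.43-fold, to 102 ± 12.8 CPM in sorafenib cells, against 351 ± 7.71 CPM in control cells, and the others were Il10 and Il22.

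Genes of the interleukin 1 receptor family, with its ligands and signalling genes, rose more often than they fell. In this list, which includes Il1r1, 6 rose and 1 fell of 15 tested, beside 8.51% and 9.43% of all tested genes. The median was 0.56. But 3 rose without sorafenib replicate 1 and 4 rose without sorafenib replicate 3. Those fits called 1335 and 1252 of 13255 genes in all, against 2378 with all libraries. On log2(FPKM + 1) with a filter, 2 rose and 1 fell. That fit called 1405 of 11000 genes higher and 748 lower. Il18rap, the accessory chain of the interleukin 18 receptor, rose 4.72-fold, to 3.43 ± 0.424 CPM in sorafenib cells, against 0.725 ± 0.222 CPM in control cells (adjusted p = 0.000375). Its partner chain Il18r1 rose 2.21-fold (adjusted p = 0.00116), and Il1r2, the decoy receptor of interleukin 1, rose 2.07-fold (adjusted p = 0.00310). Among ROR and clock genes 2 rose and 1 fell of 9 tested, beside 8.51% and 9.43% of all tested genes, with a median of 0.02. Without control replicate 2 the counts were 3 and 2 and the median -0.08, in a fit that called 32.4% of all tested genes. Nfil3, a repressor that also acts in T helper cells, fell 1.64-fold (adjusted p = 6.43e-05), and Npas2, a clock activator, rose 2.46-fold (adjusted p = 0.00159). Bmal1, its relative in the clock, rose 1.34-fold (adjusted p = 0.0265), which missed the threshold in 7 of 17 alternatives: without control replicate 1 or any 1 sorafenib replicate, and in the 3 fits on FPKM (highest adjusted p = 0.139).

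**Figure D5:**
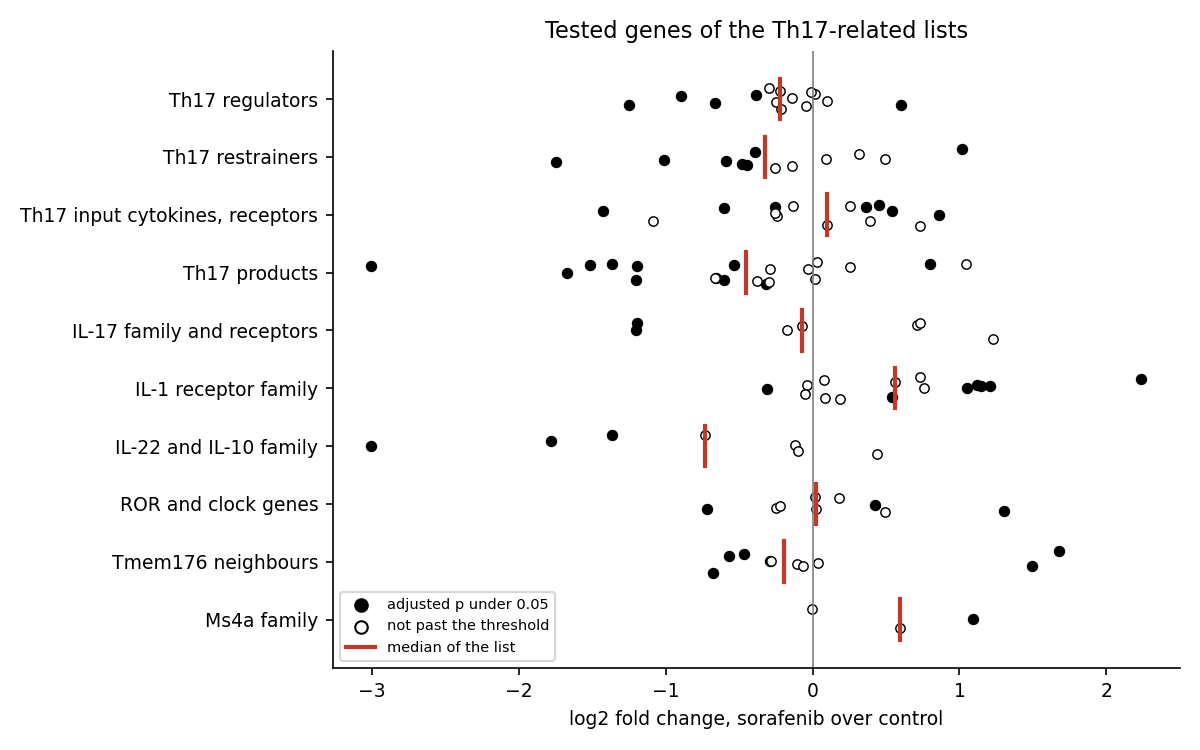
Log2 fold change, sorafenib over control, of each tested gene in 10 lists around the Th17 programme; filled circles passed an adjusted p of 0.05 and the red bar is the list's median. Medians run from -0.74 in the interleukin 22 and 10 family to 0.60 in the Ms4a family, and called genes lie on both sides of 0 except in the interleukin 17 and the interleukin 22 and 10 families (lower alone) and the Ms4a family (higher alone).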

How the data were processed

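Per the labels' protocols, RNA came from a TRIzol extraction and library construction followed a VAHTS RNA-seq kit. Whole-number counts and FPKM, both per gene, are the values the authors deposited. GRCm39, HISAT2, HTSeq, fastp, DESeq2 and R 3.2.0 are named by the submitters' processing notes. The sources used here do not give tool roles, strand setting or the handling of reads that match several genes. For 100% of 12173 genes checked, the deposited FPKM was the count divided by the column total and a single gene length, to within 0.1%.

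Libraries were grouped by title. Genes were filtered with filterByExpr (13255 left), scaled with TMM and tested with edgeR 4.0.16 in R 4.3.3 (robust quasi-likelihood, no covariate, 4 residual degrees of freedom), with p-values Benjamini-Hochberg adjusted over all tested genes and a threshold of 0.05. A positive log2 fold change means higher in sorafenib cells. Each standard error is the absolute log2 fold change over the square root of F. Libraries differed by more than sampling noise, with a chi-square per degree of freedom of 6.13 or more within groups. Alternatives were limma-voom and limma on log2 FPKM (limma 3.58.1), DESeq2 1.42.0, other scalings and filters, a fit with a replicate block, and fits lacking 1 library.

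The 9 genes and all lists were chosen with earlier results of these data known. Named are the 9 genes, Stat3, Il9, Cd4, up to 3 called genes per list by adjusted p and the 3 genes of most similar profile, with mean log2 CPM of at least 0. The other genes named as cell markers, or for their place beside Ccr6 or the Tmem176 pair, were picked after their values were seen. Some genes of the rule and lists are not reported here. Promoters are from RefSeq (GRCm38.p6), and all 9 symbols matched.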

Additional observations from a re-analysis of the deposited data

How the results depend on the processing

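Il17a, Il17f, Il22, Ccr6, Tmem176a and Tmem176b kept their direction and an adjusted p under 0.05 in all 17 alternatives run, and both summed pairs did so in 14. Over the single libraries left out, the log2 fold change was -1.34 to -1.10 for Il17a, -1.26 to -1.11 for Il17f, -3.25 to -2.58 for Il22, 0.70 to 0.89 for Ccr6, 1.63 to 1.76 for Tmem176a and 1.43 to 1.61 for Tmem176b. Il1r1 kept its direction but passed with no filter on low counts (0.74) and without control replicate 3 (1.04). It ranged from 0.53 to 1.04 with single libraries left out. Rora changed sign without control replicate 2 or sorafenib replicate 1 and ranged from -0.083 to 0.10, never passing. The Il17a share of its pair changed sign when any of 3 libraries was left out, ranging from -2.20 to 1.80 percentage points. The number of genes called was 1252 to 4301 with single libraries left out, the highest without control replicate 2. The cause was not tested for any of these. On log2(FPKM + 1) with a filter, 1405 genes were higher and 748 lower.

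Titles share replicate numbers but do not say that a number is a shared culture, animal or day, so same-numbered libraries were not treated as pairs. Their deviations correlated at r = -0.063, 0.152 and 0.102, against -0.178 to 0.098 for libraries of different number. Pairing is not settled by these values. With a replicate block 2139 genes were called, and no call among the 9 genes changed. Counts at the floor limit Il23r, for which no value in the main filter could be had, and libraries of 3 per group limit the permutation test of the shares.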
